A study of Mus musculus with 58 samples.

Results

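The comparison set mice heterozygous for Tanc2 and treated with fluoxetine against wild-type mice given vehicle, and asked how far the treated mutant stood from the untreated normal state in the prefrontal cortex. Its members were the 10 libraries labelled heterozygous (HT) and fluoxetine and the 9 labelled wild type (WT) and vehicle, 19 of 58 libraries in all. The HT fluoxetine mice were 5 females and 5 males, and the WT vehicle mice were 5 females and 4 males. All were C57BL/6J mice whose prefrontal cortex was taken at postnatal day 25. Drug or vehicle reached the pups through the milk of their mothers from day 3 to day 24, for 3 weeks. Of the remaining arms, HT vehicle (10 mice) and WT fluoxetine (10 mice) were used here to divide the difference into steps and as a second pair. HT lithium mice (5 females and 4 males) and WT lithium mice (5 females and 5 males) entered the fit of all 58 libraries. No comparison of the lithium mice is given here. The labels say neither which part of Tanc2 is altered nor which pups shared a litter, so p-values treat mice as independent. Genotype and drug both differ between HT fluoxetine and WT vehicle mice, and their parts cannot be told apart within that difference alone.

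Tanc2 encodes a scaffold protein of the postsynaptic side of excitatory synapses. Fluoxetine blocks the serotonin transporter, so that serotonin released in the cortex stays longer outside cells. Neurons answer activity within minutes by switching on immediate early genes, many of which encode transcription factors. Cells keep their sterol level by a loop in which the factor SREBP2 raises genes of cholesterol synthesis and uptake, and INSIG proteins hold that factor back. When proteins fold poorly in the endoplasmic reticulum, sensors in its membrane raise chaperones such as BiP, encoded by Hspa5, through the factors ATF6 and XBP1.

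Between 23271044 and 34849797 reads lay behind an HT fluoxetine library, and between 26946192 and 30390890 behind a WT vehicle library. Levels are given as normalized reads, that is reads divided by a size factor of the library, and differences as log2 of the level plus 1, HT fluoxetine minus WT vehicle, with their standard error (SE) after the ± sign. The test was limma, the threshold for a call was 0.05 on the p adjusted by Benjamini and Hochberg over all genes, and females and males had equal weight. Tanc2 itself (ENSMUSG00000053580, GRCm38 chromosome 11, 105589986 to 105929304) had 7414, 8160 and 8831 normalized reads in HT fluoxetine libraries (lowest, median and highest) and 6939, 7680 and 8005 in WT vehicle libraries. The ranges overlapped and the difference of 0.09 ± 0.04 did not pass (adjusted p = 0.324). The value sums all transcripts of the gene, so it does not check the genotype labels, and HT and WT are used here as the labels give them.

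One feature of the libraries moved with the comparison in females. Gm10221, a processed pseudogene on chromosome 5, had between 61 and 230 normalized reads in all 5 HT fluoxetine females and 0 in all 5 HT fluoxetine males and all 9 WT vehicle mice. mt-Atp6, a mitochondrially coded subunit of ATP synthase, ran from 48160 to 65130 in those females and from 21180 to 34070 in HT fluoxetine males, against 17020 to 28780 in WT vehicle females and 15220 to 22890 in WT vehicle males. The Gm10221 reads were also in 3 of 5 WT fluoxetine females and in every lithium library of both genotypes and sexes. They were in no HT vehicle mouse and no WT fluoxetine male. What gives the Gm10221 reads was not tested. For gene groups with members that passed, values are therefore given also from a fit with a term for those reads, and from a fit of the libraries without them, in which the 5 HT fluoxetine males alone stood against the 9 WT vehicle mice. Both fits took sex as additive. The term rests on the fluoxetine arms, the only ones with libraries both with and without the reads.

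Of 17925 genes tested 332 passed, or 1.85%, with 152 higher (0.848%) and 180 lower (1.0%) in HT fluoxetine mice. The differences were small. The median size was 0.28 on the log2 scale among the higher genes and 0.25 among the lower ones, and 11 of the 332 reached 1. The median over all genes tested was -0.000848. In 11 of the 152 higher genes every HT fluoxetine library lay above every WT vehicle library, where 12 of all genes did so (0.0669%). In 29 of the 180 lower genes every HT fluoxetine library lay below every WT vehicle library, against 30 of all genes (0.167%). With the term for Gm10221 reads 112 genes passed, 33 higher and 79 lower, and 97 of them were among the 332. Among libraries without those reads 87 passed, 20 higher and 67 lower, and 79 of them were among the 332. Leaving out HT fluoxetine male 2 gave 200 genes and leaving out WT vehicle male 1 gave 203.

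**Figure D1:**
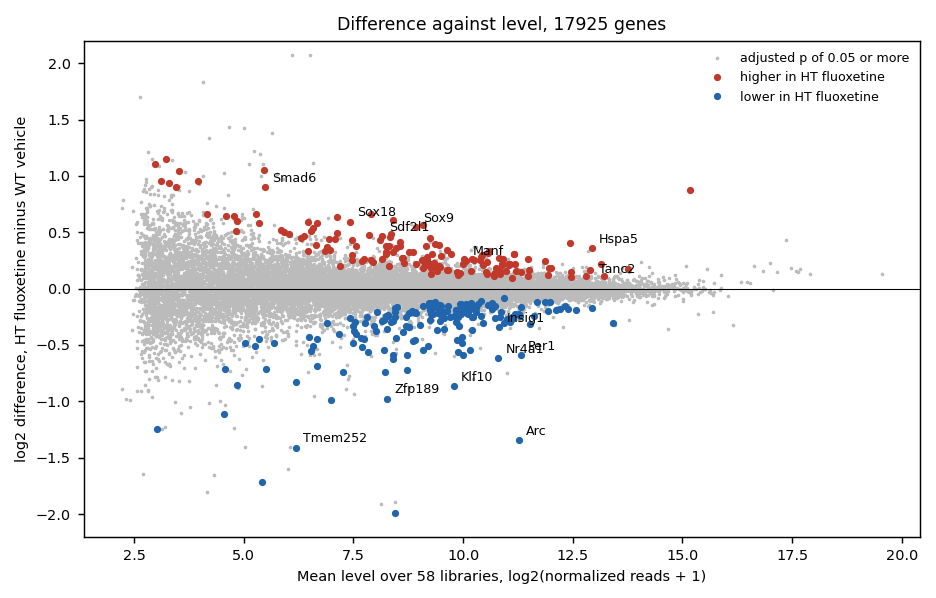
Each point is a gene, with its mean level over the 58 libraries as log2(normalized reads + 1) on the horizontal axis and its log2 difference, HT fluoxetine minus WT vehicle, on the vertical axis. The 152 higher genes (red) and 180 lower genes (blue) lie at all levels and mostly within 0.5 of 0, Arc and Tmem252 stand out below, and 7 genes beyond 2.2 on the log2 scale are not drawn.

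Genes that neurons switch on with activity were lower in HT fluoxetine mice. Of 44 immediate early genes 12 fell and 1 rose, 34 lay below 0, and the list's median was -0.18. Arc, which encodes a synaptic protein that takes glutamate receptors off the surface, had 636, 1084 and 2772 normalized reads in HT fluoxetine libraries (lowest, median and highest) and 1354, 3441 and 4521 in WT vehicle libraries. The ranges overlapped, and all 10 HT fluoxetine mice lay under the WT vehicle mean of their sex. Arc fell by 1.35 ± 0.25 (adjusted p = 0.000607). Klf10, a zinc-finger transcription factor, had 478, 603 and 753 in HT fluoxetine libraries and 751, 1240 and 1355 in WT vehicle libraries, where the highest HT fluoxetine library just passed the lowest WT vehicle library. It fell by 0.87 ± 0.12 (adjusted p = 1.87e-06).

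Per1, a clock gene that activity and glucocorticoids also induce, had 1661, 1816 and 2221 normalized reads in HT fluoxetine libraries and 2450, 2826 and 3279 in WT vehicle libraries, with no overlap. It fell by 0.59 ± 0.06 (adjusted p = 2.94e-09). Nab2, which encodes a corepressor of EGR factors, had 659, 769 and 843 in HT fluoxetine libraries and 949, 1024 and 1155 in WT vehicle libraries. Those groups did not overlap either, and Nab2 fell by 0.45 ± 0.06. Sik1, a kinase that restrains the cyclic AMP response, fell by 0.72 ± 0.12 (adjusted p = 0.000252), although HT fluoxetine male 3, at 494, stood among the WT vehicle libraries. The nuclear receptors Nr4a1 and Nr4a3 fell by 0.62 ± 0.13 and 0.56 ± 0.15, and Junb and Jun, which encode parts of the AP-1 factor, by 0.59 ± 0.15 and 0.22 ± 0.06. The remaining members that fell were Csrnp1, Gadd45b and Trib1, by 0.56 ± 0.14, 0.38 ± 0.10 and 0.28 ± 0.07.

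Not all of the list moved that way. Fos, the best known immediate early gene, had 298, 441 and 1043 normalized reads in HT fluoxetine libraries and 403, 684 and 1018 in WT vehicle libraries. The WT vehicle range lay inside the HT fluoxetine range, and the Fos difference of -0.57 ± 0.22 did not pass (adjusted p = 0.206). Egr1 stood at -0.10, Npas4 at 0.10 and Bdnf at -0.05, none of which passed. Klf6, a zinc-finger factor on the same list, rose by 0.27 ± 0.05 (adjusted p = 0.000123), with 1881, 2087 and 2223 in HT fluoxetine libraries against 1601, 1668 and 1862 in WT vehicle libraries and no overlap. HT fluoxetine male 3 was the highest HT fluoxetine library for Arc, Fos and Sik1, and also for the mean log2 level of striatal (9.30), olfactory bulb (10.07) and choroid plexus (6.19) markers, whose part in those values was not tested. Without it 15 members fell, among them Fos, at -0.73 (adjusted p = 0.0489). Without WT vehicle male 1 the number was 6, and it was 7 without HT fluoxetine female 4, WT vehicle female 5 or WT vehicle male 4. With the term for Gm10221 reads 5 members fell, and 5 fell among libraries without those reads, where Arc stood at -1.25 (adjusted p = 0.0688).

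Negative regulators of growth factor signalling through ERK, which that signalling itself induces, moved in part. Of 13 such genes 3 fell and 0 rose, with a list median of -0.03. Errfi1, which encodes an inhibitor of the EGF receptor, had 663, 739 and 821 normalized reads in HT fluoxetine libraries and 822, 896 and 947 in WT vehicle libraries, so that the groups met without overlapping. It fell by 0.25 ± 0.05 (adjusted p = 0.0013). Dusp1, a phosphatase of MAP kinases, fell by 0.51 ± 0.14 (adjusted p = 0.0383), a call that ended in 12 of the 19 fits with 1 library left out. Spry4, an inhibitor of receptor tyrosine kinase signalling, fell by 0.25 ± 0.06, and that call ended without HT fluoxetine female 3, HT fluoxetine male 2, WT vehicle female 5 or WT vehicle male 4. Without any 1 of those 4 libraries 1 member fell. Errfi1 alone fell with the term for Gm10221 reads (adjusted p = 0.00189) and among libraries without them (adjusted p = 0.0098), where Dusp1 stood at -0.51 (adjusted p = 0.152) and -0.47 (adjusted p = 0.427) and Spry4 at -0.21 (adjusted p = 0.271) and -0.24 (adjusted p = 0.175).

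Genes of cholesterol synthesis and uptake were lower as a group. Of 27 genes 14 fell and 0 rose, all 27 lay below 0, and the median was -0.19, where 49.5% of all genes tested lay above 0. Insig1, which encodes the protein that retains SREBP factors in the endoplasmic reticulum and is itself their target, had 1404, 1601 and 1774 normalized reads in HT fluoxetine libraries and 1809, 2111 and 2238 in WT vehicle libraries. The groups did not overlap, and Insig1 fell by 0.34 ± 0.05 (adjusted p = 1.46e-05). Idi1, which makes the activated isoprene unit of sterols, had 1690, 1804 and 1915 in HT fluoxetine libraries and 2033, 2222 and 2556 in WT vehicle libraries. It fell by 0.31 ± 0.06 with no overlap (adjusted p = 0.000802).

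The genes that fell act at many steps of the pathway. Hmgcs1, an enzyme at the start of the mevalonate pathway, fell by 0.31 ± 0.07. Fdps, Fdft1 and Sqle, which act between the isoprene unit and squalene epoxide, fell by 0.26 ± 0.06, 0.25 ± 0.06 and 0.27 ± 0.06. Among the enzymes that turn squalene epoxide into cholesterol, Lss fell by 0.14 ± 0.04, Cyp51 by 0.27 ± 0.06 and Sc5d by 0.24 ± 0.05. Srebf2, which encodes SREBP2, fell by 0.19 ± 0.04, and Stard4, a carrier of sterol between membranes, by 0.30 ± 0.07. Those that did not pass included Mvd at -0.22 (adjusted p = 0.0799), Dhcr7 at -0.16 (adjusted p = 0.0695) and Scap at -0.05. With the term for Gm10221 reads 5 members fell, with Insig1 at -0.36 (adjusted p = 0.000176) and Idi1 at -0.29 (adjusted p = 0.0159). Among libraries without those reads 5 fell as well, with Insig1 at -0.30 (adjusted p = 0.0108) and Idi1 at -0.30 (adjusted p = 0.0205). Myelinating oligodendrocytes hold much of the brain's cholesterol, and 0 of 23 of their markers passed by limma (3 at an unadjusted p under 0.05), with a median of -0.14, 19 below 0, a range of the median of -0.23 to -0.06 with 1 library left out, and summed levels of 83910 to 257800 in HT fluoxetine libraries and 116000 to 215100 in WT vehicle libraries. Their part in the cholesterol values was not tested. In bulk tissue fewer cells of a type and less RNA per cell cannot be told apart.

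**Figure D2:**
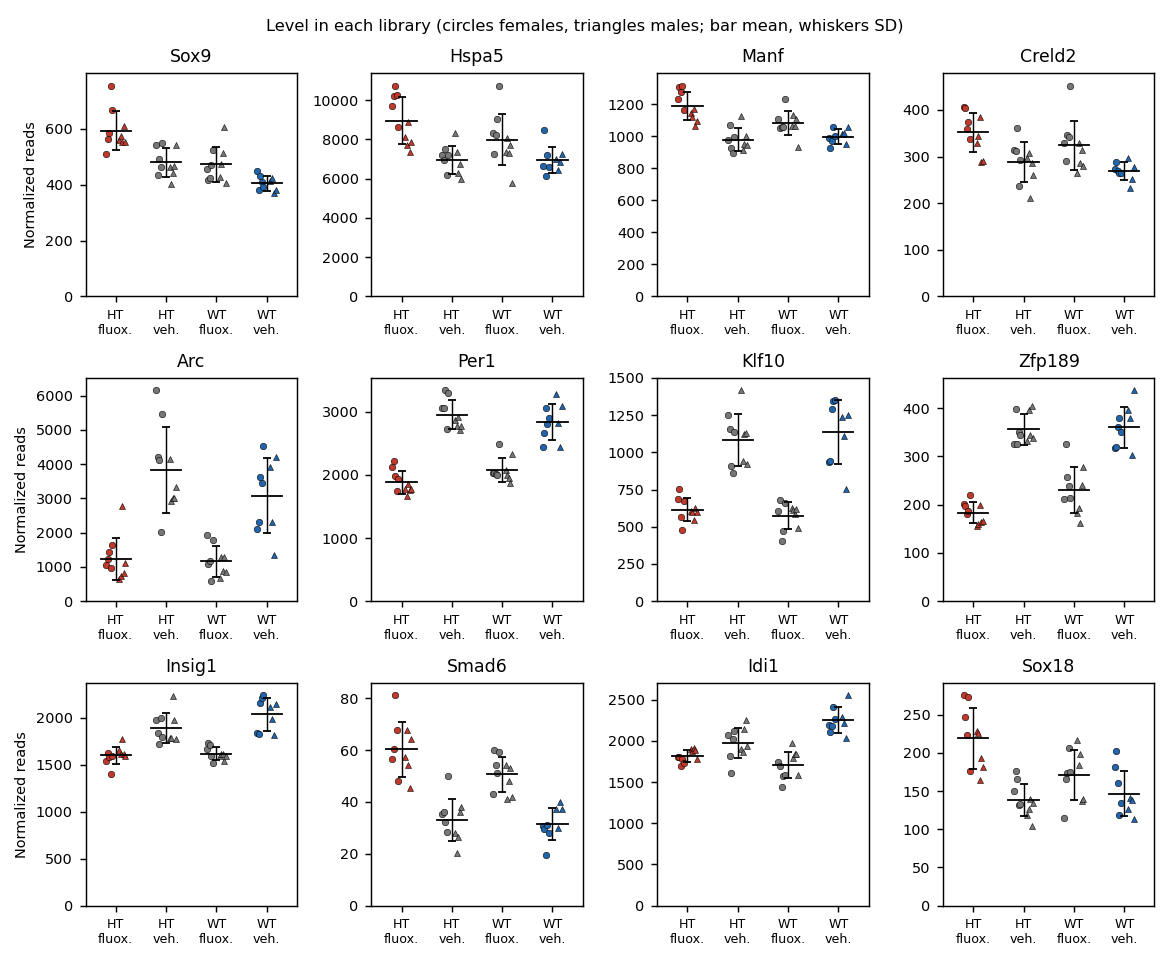
Normalized reads of 12 genes in each library of the arms HT fluoxetine, HT vehicle, WT fluoxetine and WT vehicle, with females as circles, males as triangles, the mean as a bar and the SD as whiskers. Zfp189, Per1, Insig1 and Idi1 are lower and Sox9, Manf and Smad6 higher in every HT fluoxetine library than in any WT vehicle library, while the groups overlap for Arc, Klf10, Hspa5, Creld2 and Sox18.

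The lower genes with the smallest p belonged largely to no list. Zfp189, a zinc-finger transcription factor, came first, with 156, 184 and 220 normalized reads in HT fluoxetine libraries and 303, 361 and 437 in WT vehicle libraries. The groups stood far apart, and Zfp189 fell by 0.98 ± 0.09 (adjusted p = 3.48e-11), a ratio of 0.507. Tmem252, a membrane protein gene, had 26.1, 34.5 and 57.3 in HT fluoxetine libraries and 73.9, 91.0 and 139 in WT vehicle libraries. It fell by 1.41 ± 0.17 with no overlap (adjusted p = 2.53e-07). Stk40, a kinase-like protein gene, had 764, 819 and 881 in HT fluoxetine libraries and 1018, 1168 and 1223 in WT vehicle libraries, and fell by 0.48 ± 0.05. Its groups did not overlap either.

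Others of the lower genes encode regulators of transcription and signalling. Zfp366 fell by 0.74 ± 0.10, Dyrk3, a kinase, by 0.55 ± 0.07, Iffo2 by 0.36 ± 0.05, Atp8b2, a lipid flippase, by 0.22 ± 0.03 and Fam78a by 0.74 ± 0.11, each with no overlap between the groups. Itpkc, an inositol trisphosphate kinase, fell by 0.48 ± 0.06 and Phf13, a reader of histone methylation, by 0.39 ± 0.05, with overlap. Chrm4, the muscarinic acetylcholine receptor M4, had 230, 257 and 347 normalized reads in HT fluoxetine libraries and 328, 412 and 471 in WT vehicle libraries, and fell by 0.59 ± 0.08 (adjusted p = 1.87e-06). Chrm4 is abundant in the striatum, and Drd1, the D1 dopamine receptor that marks striatal projection neurons, stood at -0.15 ± 0.26 (adjusted p = 0.891). The striatal list had 0 of 20 genes passing by limma and 0 at an unadjusted p under 0.05. Its median was 0.16 with 17 of the 20 above 0, and 0.02 without HT fluoxetine male 3, with summed levels of 16230 to 27240 in HT fluoxetine libraries and 14190 to 19740 in WT vehicle libraries. Of the 15 lower genes named by smallest p 15 kept the call with the term for Gm10221 reads and 15 among libraries without them. Of the 15 higher genes named the same way, described further on, 12 kept it with the term and 6 among libraries without the reads.

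Chaperones of the endoplasmic reticulum were higher in HT fluoxetine mice. Of 33 genes of that compartment's folding and stress machinery 11 rose and 0 fell, 28 lay above 0, and the median was 0.09. Hspa5 had 7373, 8745 and 10734 normalized reads in HT fluoxetine libraries and 6117, 6830 and 8488 in WT vehicle libraries. The ranges overlapped because WT vehicle female 2 stood at 8488, above the next WT vehicle library at 7278, and all 10 HT fluoxetine mice lay above the WT vehicle mean of their sex. Hspa5 rose by 0.36 ± 0.06 (adjusted p = 0.000228). Manf, which encodes a secreted factor of the stressed endoplasmic reticulum, had 1066, 1167 and 1314 in HT fluoxetine libraries and 928, 1000 and 1059 in WT vehicle libraries. Those groups did not overlap, and Manf rose by 0.25 ± 0.04 (adjusted p = 3.58e-05).

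The partners of BiP rose with it. Dnajc3, a cochaperone of BiP, had 1953, 2102 and 2227 normalized reads in HT fluoxetine libraries and 1634, 1786 and 1949 in WT vehicle libraries, and rose by 0.22 ± 0.04 with no overlap. Sdf2l1, a binding partner of BiP, rose by 0.47 ± 0.09, Dnajb11, another cochaperone, by 0.14 ± 0.03 and Hsp90b1, the HSP90 of the compartment, by 0.11 ± 0.03. Of the enzymes that form disulfide bonds Pdia3, Pdia4 and Pdia6 rose by 0.15 ± 0.03, 0.26 ± 0.07 and 0.26 ± 0.05. Creld2, a stress-induced secreted protein, rose by 0.38 ± 0.07, and Xbp1, the transcription factor, by 0.26 ± 0.05 (adjusted p = 0.000854). Genes of the branch that runs through PERK did not pass: Atf4 stood at -0.07, Ddit3 at 0.11 and Trib3 at 0.62 (adjusted p = 0.536). The sensors Atf6, Ern1 and Eif2ak3 stood at 0.02, -0.13 and -0.04, and 0 of 18 cytosolic heat shock genes passed by limma (unadjusted p under 0.05 in 1), with a median of -0.01.

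The females carried larger values than the males. The list's median was 0.14 in females and 0.05 in males, Hspa5 stood at 0.50 and 0.22 and Manf at 0.35 and 0.15, and neither gene's difference between the sexes passed. Since all 5 HT fluoxetine females had Gm10221 reads and the 5 males had 0, in HT fluoxetine mice sex and those reads cannot be told apart. With the term for those reads 7 members rose, with Hspa5 at 0.30 (adjusted p = 0.0422) and Manf at 0.22 (adjusted p = 0.00731). Among libraries without the reads 1 rose, Dnajc3 at 0.18 (adjusted p = 0.041), while Hspa5 stood at 0.26 (adjusted p = 0.287) and Manf at 0.17 (adjusted p = 0.202).

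Because the chaperone genes moved together, the 250 bases before their transcription starts (RefSeq, build GRCm38.p6) were searched on both strands for the endoplasmic reticulum stress element, spelled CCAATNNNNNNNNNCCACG. Of the 11 members that rose 10 had a promoter in the table, and 5 of those held the element: Creld2, Dnajc3, Hsp90b1, Hspa5 and Pdia6. Of 18 list members that did not rise and had a promoter 4 held it, and 0.13% of all 27025 genes with a promoter did. A match is a description of the letters, not a site of binding. The stretches below lie outside annotated exons, run 5′ to 3′ on the strand of the gene and show the element in capitals, read on the opposite strand in Creld2. They cover chr15:88819496-88819645, chr14:118937782-118937931 and chr12:17266395-17266544, all on the + strand, and the element lies between 126 and 80 bases before the start in each.
Creld2: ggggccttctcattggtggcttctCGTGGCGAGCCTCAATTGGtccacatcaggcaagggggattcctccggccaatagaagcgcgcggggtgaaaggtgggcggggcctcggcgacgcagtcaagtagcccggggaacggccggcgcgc
Dnajc3: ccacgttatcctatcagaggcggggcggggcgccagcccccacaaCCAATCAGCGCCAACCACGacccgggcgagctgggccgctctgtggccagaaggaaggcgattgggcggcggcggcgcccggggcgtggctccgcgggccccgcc
Pdia6: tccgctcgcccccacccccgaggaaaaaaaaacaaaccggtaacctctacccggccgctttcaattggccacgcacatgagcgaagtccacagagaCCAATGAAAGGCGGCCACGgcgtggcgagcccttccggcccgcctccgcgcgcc

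The same search in cholesterol genes used the core of the sterol regulatory element, TCACNCCAC, which 1.22% of all promoters held. It was present in 1 of the 7 members that fell and had a promoter in the table, Hmgcs1, and in 0 of 12 that did not fall. The stretch of Hmgcs1 is shown for that match, in capitals, at chr13:119690201-119690350 on the + strand.
Hmgcs1: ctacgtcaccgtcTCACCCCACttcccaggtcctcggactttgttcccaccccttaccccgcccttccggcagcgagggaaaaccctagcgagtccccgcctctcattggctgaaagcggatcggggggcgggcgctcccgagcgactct
The cyclic AMP response element TGACGTCA was in 1.77% of all promoters and 2.84% of those of genes tested. It was in 0 of the 8 immediate early genes that fell and had a promoter, and in 4 of 28 that did not fall. The CArG box, in 1.62% of all promoters and 1.46% of those of genes tested, was in 0 of 8 and 1 of 28. No match says only that these letters are not in the window.

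**Figure D3:**
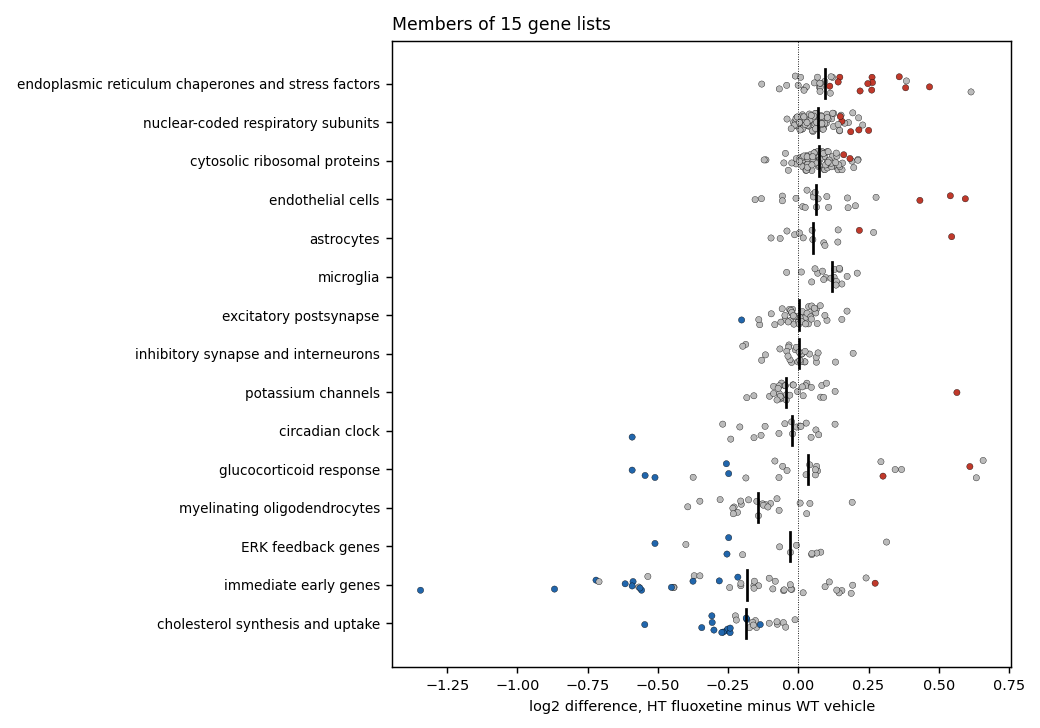
Each point is a gene, placed by its log2 difference, HT fluoxetine minus WT vehicle, in 15 of the 31 lists; red points rose, blue points fell, grey points did not pass, and the black bar is the list's median. Cholesterol genes lie below 0 without exception, 12 immediate early genes fell, and 11 chaperone genes rose, while synaptic lists centre on 0.

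Sox9 had the smallest p among the higher genes. It encodes a transcription factor that marks astrocytes in the grown cortex, on chromosome 11 (112782224 to 112787760). It had 509, 571 and 754 normalized reads in HT fluoxetine libraries and 371, 408 and 450 in WT vehicle libraries, with no overlap, and rose by 0.55 ± 0.08 (adjusted p = 3.58e-05), a ratio of 1.46. It stood at 0.57 (adjusted p = 0.000741) with the term for Gm10221 reads and at 0.53 (adjusted p = 0.000342) among libraries without them. Of 15 astrocyte markers S100b, a calcium-binding protein gene, also rose, by 0.22 ± 0.06, a call that ended in 7 of the 19 fits with 1 library left out, with the term (adjusted p = 0.0739) and among libraries without the reads (adjusted p = 0.134), and 11 of the 15 lay above 0 with a median of 0.05. Their summed level ran from 155200 to 204800 in HT fluoxetine libraries and from 160300 to 178600 in WT vehicle libraries. Without HT fluoxetine female 4 the median was 0.03, and that library had the highest mean log2 level of the 19 for astrocyte (11.94), endothelial (9.79) and microglial (9.81) markers. Mertk, a receptor through which glia engulf debris, rose by 0.30 ± 0.06 (adjusted p = 0.00125).

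Some genes of vessel identity and of BMP signalling moved too. The endothelial transcription factors Sox18, Sox17 and Foxq1 rose by 0.59 ± 0.11, 0.43 ± 0.09 and 0.54 ± 0.11, 3 of 22 endothelial markers. Sox18 had 164, 225 and 275 normalized reads in HT fluoxetine libraries and 114, 138 and 202 in WT vehicle libraries, with overlap. The list's median was 0.06, its summed level ran from 26340 to 35100 in HT fluoxetine libraries and from 25570 to 30300 in WT vehicle libraries, and Cldn5, a tight junction protein gene, did not pass at 0.20 ± 0.07 (adjusted p = 0.177). Without HT fluoxetine female 4, the highest library for these markers, the median was 0.03. Of the 22, 2 rose with the term for Gm10221 reads, while Sox17 stood at 0.40 (adjusted p = 0.0703). Among libraries without those reads 0 passed, with Sox18 at 0.53 (adjusted p = 0.118). Of 14 BMP feedback and Id genes 1 rose and 2 fell, 9 lay above 0 and 5 below, and the median was 0.06. Smad6, an inhibitor of BMP signalling, had 45.3, 58.8 and 81.2 normalized reads in HT fluoxetine libraries and 19.5, 30.6 and 39.8 in WT vehicle libraries. It rose by 0.90 ± 0.15 with no overlap (adjusted p = 0.000146). Smad7, its relative that also restrains TGF-beta, fell by 0.46 ± 0.08, and Hes1, a repressor downstream of Notch, fell by 0.51 ± 0.11. All 3 calls held in both of those fits.

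Further higher genes had varied roles. Flrt3, an adhesion protein of axons and synapses, had 741, 812 and 923 normalized reads in HT fluoxetine libraries and 555, 632 and 685 in WT vehicle libraries. It rose by 0.39 ± 0.06 with no overlap (adjusted p = 7.26e-05). Nsmce3, a subunit of the SMC5-SMC6 complex, rose by 0.23 ± 0.04, with HT fluoxetine male 4, at 641, set apart below the other HT fluoxetine libraries, and stood at 0.18 with the term for Gm10221 reads (adjusted p = 0.0551) and at 0.18 among libraries without them (adjusted p = 0.163). Kcnj2, an inward rectifier potassium channel, rose by 0.56 ± 0.11 (adjusted p = 0.00172), 1 of 33 potassium channel genes, and kept its call in both fits. Olig2, a factor of the oligodendrocyte lineage, rose by 0.31 ± 0.08 (adjusted p = 0.0379), a call that ended in 11 of the 19 fits with 1 library left out, with the term (adjusted p = 0.168) and among libraries without the reads (adjusted p = 0.341).

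Genes of the respiratory chain and of ribosomes lay slightly higher. Of 76 nuclear-coded respiratory subunits 5 rose, 0 fell and 65 lay above 0, with a median of 0.07. Ndufc2, a subunit of complex I, rose by 0.25 ± 0.05, and Cox5a, Cox5b and Cox8a of cytochrome c oxidase rose by 0.16 ± 0.04, 0.19 ± 0.05 and 0.22 ± 0.06, while Atp5j of ATP synthase rose by 0.15 ± 0.04. Cox11, an assembly factor of that oxidase, rose by 0.31 ± 0.05 (adjusted p = 5.67e-05). Of 79 ribosomal protein genes Rpl13 and Rps2 rose, by 0.18 ± 0.04 and 0.16 ± 0.04, 71 lay above 0 and the median was 0.07. The summed level of the 79 ran from 224900 to 270400 in HT fluoxetine libraries and from 222800 to 251600 in WT vehicle libraries. HT fluoxetine female 4, male 2 and male 3 had mean log2 levels of 11.435, 11.443 and 11.417, above the highest WT vehicle library at 11.368. The remaining HT fluoxetine libraries, at 11.176 to 11.303, lay inside the WT vehicle range. mt-Atp6 was the 1 of 13 mitochondrially coded genes that rose, at 0.87 ± 0.19. With the term for Gm10221 reads, and among libraries without them, none of the genes on these 3 lists passed, and Cox11 stood at 0.21 (adjusted p = 0.0642) and 0.24 (adjusted p = 0.0835). Without HT fluoxetine male 2, 1 respiratory subunit rose, 2 or 3 rose in 9 more of the 19 fits with 1 library left out, and the Rps2 call ended in 6 of the 19.

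Stress hormone targets moved in both directions. Of 24 genes of the glucocorticoid response 2 rose and 5 fell, with a median of 0.03. The number that fell was 3 in 10 of the 19 fits with 1 library left out, HT fluoxetine female 1 and WT vehicle male 1 among the libraries. Sult1a1, a sulfotransferase gene, had 251, 357 and 471 normalized reads in HT fluoxetine libraries and 185, 225 and 359 in WT vehicle libraries, where WT vehicle male 3 alone reached 359. It rose by 0.61 ± 0.13 (adjusted p = 0.00473), and Mertk, described above, is also on the list. Ddit4, an inhibitor of the growth kinase mTOR, had 692, 837 and 1243 in HT fluoxetine libraries and 1029, 1226 and 1363 in WT vehicle libraries. It fell by 0.55 ± 0.09 (adjusted p = 9.44e-05), and HT fluoxetine male 3, at 1243, was the 1 HT fluoxetine library inside the WT vehicle range. Sgk1, a hormone-induced kinase, fell by 0.26 ± 0.07, and Per1, Dusp1 and Errfi1 are on this list as well. Of 19 clock genes Per1 was the 1 that fell, and 2 fell in 5 of the 19 fits with 1 library left out. On the glucocorticoid list 1 member rose and 3 fell with the term for Gm10221 reads, and among libraries without them 2 rose and 3 fell, while Per1 kept its call in both and Sult1a1 stood at 0.60 with the term (adjusted p = 0.0537).

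The synaptic lists and the serotonin list each had 1 gene or 0 that passed. Of all genes tested 1.85% did, and counts this small do not set these lists apart. Of 47 genes of the excitatory postsynapse 1 fell, Nlgn3, an adhesion protein of the postsynaptic side, by 0.20 ± 0.06 (adjusted p = 0.0383), a call that ended in 12 of the 19 fits with 1 library left out. Nlgn3 stood at -0.03 with the term for Gm10221 reads (adjusted p = 0.889) and at -0.10 among libraries without them (adjusted p = 0.521). The list's median was 0.003. By limma 0 of 39 presynaptic and 0 of 29 inhibitory synapse and interneuron genes passed. Unadjusted, 1 and 2 of them had a p under 0.05, and the lists had medians of -0.01 and 0.003. Of 15 serotonin receptor and transport genes Maob, which encodes a monoamine oxidase, rose by 0.25 ± 0.07 (adjusted p = 0.042), and that call too ended in 12 of the 19, with the term (adjusted p = 0.0606) and among libraries without the reads (adjusted p = 0.353). The receptors Htr1a, Htr2a and Htr2c stood at 0.08, 0.11 and -0.22, none of which passed. Of 13 neurotrophin signalling genes 0 passed by limma, and 0 had an unadjusted p under 0.05.

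Markers of other cells and of neighbouring tissue bear on the make-up of the samples. Of 18 microglial markers 17 lay above 0 and 0 passed by limma (6 at an unadjusted p under 0.05), with a median of 0.12 and summed levels of 15890 to 21470 in HT fluoxetine libraries and 14360 to 18180 in WT vehicle libraries. Red blood cell genes had a median of 0.09 in females and -0.71 in males, 6 of 6 lay below 0 over both, and sums ran from 7160 to 16590 in HT fluoxetine libraries and from 8337 to 23460 in WT vehicle libraries. Markers of the olfactory bulb and neuroblasts summed to 14730 to 36140 in HT fluoxetine libraries and 17030 to 31080 in WT vehicle libraries. Upper layer neuron markers had a median of 0.08 and deep layer neuron markers one of -0.01. In each of these lists the sums overlapped between the groups and no gene passed. HT fluoxetine female 4, male 1 and male 2 lay outside the WT vehicle range of mean log2 levels for layer and myelin markers. They had 10.43, 10.36 and 10.47 for myelin (lowest WT vehicle 10.695) and 9.77, 9.77 and 9.69 for deep layers (lowest 9.90). For upper layers they had 11.27, 11.28 and 11.16 (highest WT vehicle 11.146). The part of these levels in the gene differences was not tested. Where a list had 0 genes passing by limma, edgeR and DESeq2 also called 0 of it.

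The whole difference is the sum of a genotype step, HT vehicle minus WT vehicle, and a drug step in the mutant, HT fluoxetine minus HT vehicle. These comparisons share libraries with the whole and with each other, so that only their own values are given. No gene passed for the genotype step by limma where 814 had an unadjusted p under 0.05, while edgeR called 0 and DESeq2 3. For the 180 lower genes the genotype step had a median of -0.01 and the drug step one of -0.22; for the 152 higher genes the medians were 0.04 and 0.23. Zfp189 stood at -0.02 ± 0.09 in the genotype step and -0.96 ± 0.08 in the drug step, and Hspa5 at 0.01 ± 0.06 and 0.35 ± 0.06.

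The medians of the gene groups differed in how the steps were laid out, which was not tested. Immediate early genes had a median of 0.10 in the genotype step and -0.28 in the drug step. By these medians the treated mutant lay less far under WT vehicle than under HT vehicle. The HT vehicle libraries enter both steps, so a high level in them alone would move both medians this way. Arc had 636, 1084 and 2772 normalized reads in HT fluoxetine libraries and 2011, 3715 and 6148 in HT vehicle libraries, with steps of 0.35 ± 0.25 for genotype and -1.70 ± 0.24 for drug. Cholesterol genes had medians below 0 in both steps, at -0.12 and -0.09. Markers of myelinating oligodendrocytes had medians of -0.21 in the genotype step and 0.05 in the drug step. Idi1 had 1615, 1984 and 2254 in HT vehicle libraries and stood at -0.19 ± 0.06 in the genotype step and -0.12 ± 0.06 in the drug step, neither of which passed (adjusted p = 0.947 and 0.277). Sox9 had 402, 465 and 551 in HT vehicle libraries, and stood at 0.24 ± 0.08 for genotype (adjusted p = 0.947) and 0.31 ± 0.08 for drug (adjusted p = 0.0236). The chaperone list had medians of -0.01 and 0.12.

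**Figure D4:**
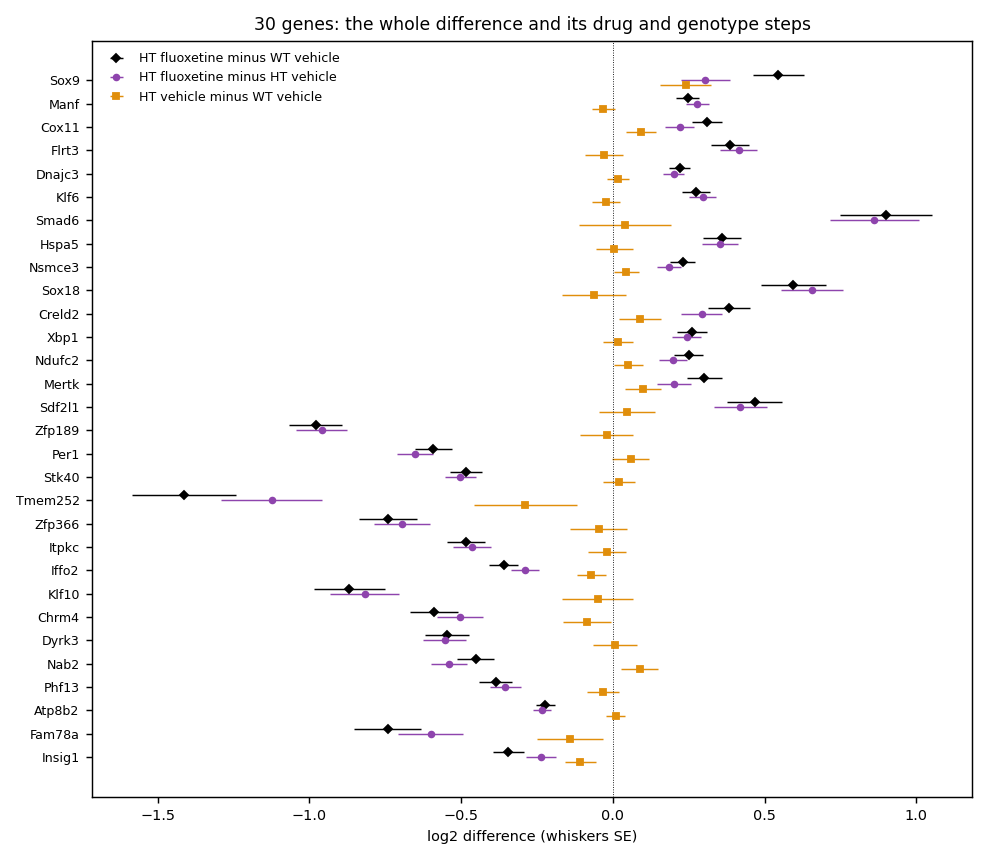
Log2 differences of the 15 higher and 15 lower genes with the smallest p, with SE as whiskers: HT fluoxetine minus WT vehicle (black diamonds), HT fluoxetine minus HT vehicle (purple circles) and HT vehicle minus WT vehicle (orange squares). For most genes the purple and black marks lie together and the orange mark lies near 0; for Sox9 the drug and genotype steps are 0.31 and 0.24.

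A second pair of arms shares no library with the comparison: WT fluoxetine against HT vehicle, where the drug has the same direction and the genotype the opposite one. This pair was chosen after seeing the data. There 96 genes were higher (0.536%) and 205 lower (1.14%) in WT fluoxetine mice. Of the 180 genes lower in HT fluoxetine mice 177 lay below 0 in the second pair, or 98.3%, and 98 fell there. Of the 152 higher genes 144 lay above 0, or 94.7%, and 28 rose there. Over all genes tested 62.1% had the same sign in both pairs. The medians in the second pair were -0.19 for the lower and 0.11 for the higher genes, against -0.25 and 0.28 in the comparison itself, from which the genes were chosen. Gm10221 reads were present in 3 of 5 WT fluoxetine females and in 0 of 10 HT vehicle mice, so that in both pairs they lay on the fluoxetine side. In males alone, which had 0 such reads in these arms, 174 of the 180 lay below 0 and 112 of the 152 above 0, where 10681 of all 17925 genes had the sign of the comparison.

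Some gene groups kept their direction in the second pair and others did not. Immediate early genes had a median of -0.40, with 22 of 44 lower and 1 higher, and Fos stood at -1.32 ± 0.21 (adjusted p = 5.42e-05) and Arc at -1.75 ± 0.24. Cholesterol genes had a median of -0.11 with 3 of 27 lower, and 4 of 33 chaperone genes rose. Of 79 ribosomal protein genes 20 lay above 0 and 59 below (median -0.03), and of 76 respiratory subunits 36 and 40 (median -0.002). Microglial markers had 8 above 0 and 10 below (median -0.02), and endothelial markers 8 and 14 (median -0.05). Flrt3 stood at 0.40 ± 0.06 (adjusted p = 2.56e-05) and Smad6 at 0.62 ± 0.15 (adjusted p = 0.012). Sox9 stood at -0.03 ± 0.08 (adjusted p = 0.946), with 408, 465 and 608 normalized reads in WT fluoxetine libraries and 402, 465 and 551 in HT vehicle libraries. The difference between the pairs, HT fluoxetine minus WT vehicle less WT fluoxetine minus HT vehicle, was tested itself and no gene passed by limma, where 810 had an unadjusted p under 0.05. By edgeR 0 genes passed and by DESeq2 4.

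**Figure D5:**
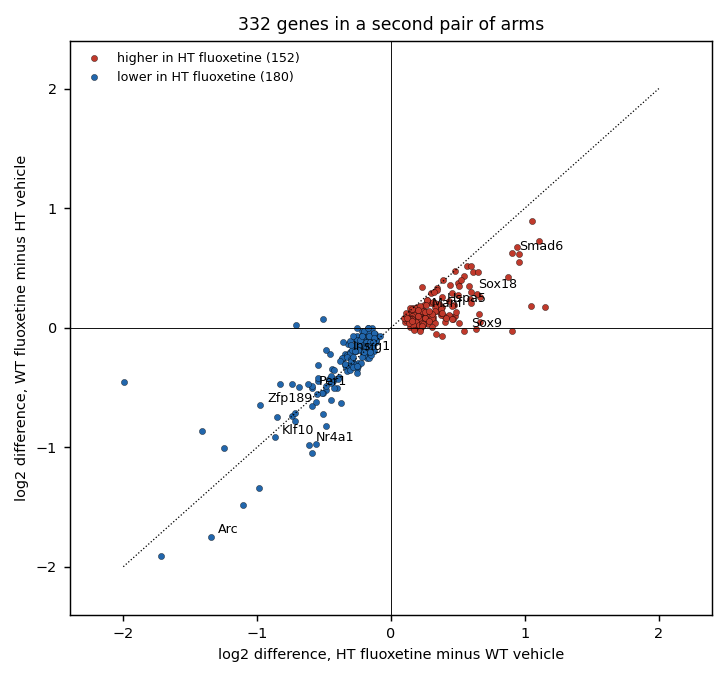
The 332 genes that passed, with the log2 difference HT fluoxetine minus WT vehicle on the horizontal axis and WT fluoxetine minus HT vehicle, from other libraries, on the vertical axis; the dotted line marks equal values and Gm10221, at 3.47 and 2.30, lies outside the axes. Lower genes (blue) lie close to the line, higher genes (red) mostly below it, and Sox9 lies near 0 on the vertical axis.

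Females and males were set side by side. In females 112 genes passed (0.625%), 62 higher and 50 lower, and in males 28 (0.156%), 4 higher and 24 lower, with 5 against 5 and 5 against 4 mice. In females 51 genes passed without HT fluoxetine female 4, 62 without WT vehicle female 3 and 64 without WT vehicle female 5. In males 13 passed without HT fluoxetine male 2 or WT vehicle male 1, 2 or 4, and 15 without HT fluoxetine male 1. Among the 332 genes of both sexes together, 151 of the 152 higher and all 180 lower ones had the same sign in females and males, where 11485 of all 17925 genes did. The 332 were chosen on the mean of these same females and males, which nearly fixes that sign. The medians of the lower genes were -0.26 in females and -0.26 in males, and of the higher genes 0.31 in females and 0.22 in males. Zfp189 stood at -0.81 in females and -1.15 in males, Per1 at -0.47 and -0.71, and Sox9 at 0.57 and 0.52. The difference between the sexes passed for 1 gene (0.00558%), Gm10221 itself, at 6.93 ± 1.13 in females minus males (adjusted p = 0.00229), where 353 genes had an unadjusted p under 0.05. The next genes did not pass: Sobp stood at 0.32 in females and 0.003 in males, Csrnp2 at -0.33 and -0.05, and Fdxacb1 at -0.29 and 0.23.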

How the data were processed

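RNA of the prefrontal cortex was sequenced from stranded poly(A) libraries, per the labels' protocols. The values are a signal deposited by the authors: reads of a gene over the library's size factor. Per the submitters' processing notes the build was GRCm38, and DESeq2 1.19.11, Salmon 0.11.2 and R 3.6.0 were used; their options are not given in the sources used here. In every column the values were multiples of 1 step within 0.01 reads (100% of values), so whole reads were recovered, although steps near 1 leave rounded values possible in some columns. Scaling by size factors takes most genes as steady. Near-identical genes share reads, so pseudogene values are uncertain. GENCODE gave positions for 18077 of 18088 genes.

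The filter (a value of 10 or more in 4 or more libraries) left 17925 genes. limma 3.58.1 with trend, run in R 4.3.3, was fitted to log2(value + 1) of all 58 libraries in 12 groups of genotype, drug and sex. Fold changes on that scale understate those of low genes. edgeR 4.0.16 (323 genes called) and DESeq2 1.42.0 (441 genes) on the recovered reads were alternatives, with others listed in the closing section. The scripts were tested on simulated data. Over the 171 pairs of the 19 libraries chi-square per degree of freedom was at least 3.505, so none was counted as a repeat.

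Genes were named by a rule: Tanc2, the 15 smallest p in each direction among genes that passed with a mean of at least 30 (unnamed models, pseudogenes and sex-linked markers passed over), the 3 smallest p for the sex difference, up to 5 members of each list described, 8 defining genes, Gm10221 and mt-Atp6. Other list members were added by their values, and Hmgcs1 is shown for its motif, after its values were seen. The comparison, the 31 lists (764 genes, of which 755 were tested) and the rule were chosen with earlier results of these data known. Results for some genes that the rule or the lists hold are not reported here.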

Additional observations from a re-analysis of the deposited data

Results flagged for a closer look

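The values of 67 named genes were checked for a library set apart from the rest of its group, in HT fluoxetine (10 libraries) and WT vehicle (9 libraries) separately. Of 133 such groups of values 10 held one, where chance gives about 1 in 20. In 4 of them it was HT fluoxetine male 3, each time the highest of its group: Arc stood at 2772 normalized reads (next 1625), Fos at 1043 (next 583), Sik1 at 494 (next 330) and Ddit4 at 1243 (next 959). The 4 values come from 1 mouse and are not independent. The same library had the highest mean log2 level of its arm for striatal (9.30), olfactory bulb (10.07) and choroid plexus (6.19) markers, and the part of those in the 4 values was not tested. Without that library the differences were -1.52 for Arc, -0.73 for Fos, -0.82 for Sik1 and -0.61 for Ddit4. HT fluoxetine female 1 was highest for Phf13 at 401 (next 358), and HT fluoxetine male 4 was lowest for Nsmce3 at 641 (next 680). In WT vehicle libraries female 2 was highest for Hspa5 at 8488 (next 7278) and for Rpl13 at 4405 (next 3808), female 1 for Zfp366 at 498 (next 406), and male 3 for Sult1a1 at 359 (next 257).

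Gm10221 differed between the sexes, at 6.93 on the log2 scale in females minus males, because all 5 HT fluoxetine females had reads and no HT fluoxetine male or WT vehicle mouse had any.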

How the results depend on the processing

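The number of genes that passed was 332, and 323 by edgeR, 441 by DESeq2, 361 after quantile normalization, 326 and 336 with pseudocounts of 0.1 and 5, 329 with no filter, 345 with a stricter filter (50 in at least 10 libraries), 410 with the 19 libraries alone and 340 with sex additive. It fell to 112 with a term for Gm10221 reads and sex additive, and to 87 among libraries without those reads. That set lacks the 5 HT fluoxetine females, 3 WT fluoxetine females and all lithium libraries. Leaving out 1 library gave 200 to 388 genes, 51 to 123 in females, 13 to 29 in males, 1 to 2 for the sex difference, 213 to 356 for WT fluoxetine minus HT vehicle and 0 to 1 for the difference between the pairs; 1 came without WT fluoxetine male 4. DESeq2 called 187 genes in females, 45 in males, 4 for the sex difference and 4 for the difference between the pairs; edgeR called 0 for the sex difference. Fits with libraries left out hold fewer mice, and the cause of these changes in the counts was not tested. Replicate numbers of the sample titles were not taken as pairs: 3 of 9 same-numbered pairs correlated above 0.1 and 2 of 9 were best with their own number. In WT vehicle males the title numbers 3 and 4 stand for libraries named 4 and 5. Pairing by library name was therefore not checked for those mice. The replicate block, like that check, used the title numbers. With the replicate block 451 genes passed, 325 of them among the 332. Of the named genes' values 1171 kept direction and side of the threshold with 1 library left out, 101 no longer passed and 1 newly passed. Over the other alternatives 738 kept both, 54 no longer passed and 1 changed sign: Drd1, which never passed, stood at 0.09987 with the term for Gm10221 reads. The smallest differences that passed were 0.0936 in size among the higher genes and 0.0863 among the lower ones, on the log2 scale.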
